A study of Homo sapiens with 8 samples.

Results

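The mevalonate arm of cholesterol synthesis was followed step by step through 9 enzyme genes, taken in pathway order from ACAT2 through HMGCS1, MVK, PMVK, MVD, IDI1, FDPS and FDFT1 to SQLE. They were found by gene name in the deposited tables, where all 9 of 22554 features were present and all 9 passed the filter on low counts that left 15432 features for testing. Messenger RNA came from SKOV3, an established human ovarian cancer line. The line was kept in McCoy's 5A medium with fetal bovine serum and antibiotics. The 4 control samples stayed in ordinary medium, and the 4 LDL samples had low-density lipoprotein added at 50 µg/mL for 48 h; whether serum was present in those hours is not stated. All 8 samples share 1 cell line, and no genotype or other named agent separates the groups. Nothing in the labels says that replicates came from separate cultures, so the p-values reflect only how far these 8 libraries scatter, and that scatter may be technical. Other enzymes of the arm were not analysed here.

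The arm turns acetyl-CoA into farnesyl diphosphate and then, through squalene, into the first oxygenated precursor of sterols. Its genes are classical targets of SREBP-2, a membrane-bound transcription factor that the INSIG and SCAP proteins hold in the endoplasmic reticulum when sterols are plentiful and release when they are scarce. LDL taken up by cells delivers cholesterol to the lysosome, which is the textbook route by which cells lower their own synthesis. Farnesyl diphosphate is the branch point of the pathway, since it also feeds protein prenylation, dolichol and ubiquinone.

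SREBP-2 is known to work with the factor NF-Y, which binds CCAAT boxes, and with Sp1, which binds GC boxes, so the bases upstream of the annotated starts are shown first. RefSeq promoters on GRCh38.p14 matched 6 of the 9 members (HMGCS1, MVK, PMVK, MVD, IDI1 and FDPS); ACAT2, FDFT1 and SQLE had no entry. Searched on both strands over the 250 bases before each start, a CCAAT box (CCAAT) was found for 5 of the 6, all but PMVK, against 37.0% of all 27305 genes in the table. A GC box (GGGCGG) was found for 6 of 6 against 46.2%. These shares were taken over all genes, with no filter on expression. A gene counts if any of its windows matches, and HMGCS1 and IDI1 have more than 1 window. Whether the members differ from other expressed genes was not tested. The core of the sterol regulatory element (TCACCCCAC) had no exact match in the 6, and 0.450% of all genes had one. With 1 mismatch it matched for MVK and FDPS, against 10.6% of all genes. The PMVK window lies wholly inside a GENCODE exon of that gene, the MVK window lies wholly inside exons of MVK and its neighbour MMAB, and starts differ between annotations, so a match or its absence describes these windows only. GENCODE exons are left out of the longer stretches below, HMGCS1 and IDI1 are shown for 1 of their annotated starts, and the 2 sites of 30 bases lie inside annotated exons. Each is written 5′ to 3′ on the strand of its gene, with whole CCAAT matches (read as ATTGG on the other strand) and matches to the sterol core in capitals.
HMGCS1, minus strand, chr5:43313513-43313662: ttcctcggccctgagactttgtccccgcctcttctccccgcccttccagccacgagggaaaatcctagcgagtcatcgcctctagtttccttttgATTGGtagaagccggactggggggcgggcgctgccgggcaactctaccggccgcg
MVD, minus strand, chr16:88663162-88663297: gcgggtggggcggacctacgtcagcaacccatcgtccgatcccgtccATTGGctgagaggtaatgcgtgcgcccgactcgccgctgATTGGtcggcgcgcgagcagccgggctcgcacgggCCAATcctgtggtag
IDI1, minus strand, chr10:1049171-1049369: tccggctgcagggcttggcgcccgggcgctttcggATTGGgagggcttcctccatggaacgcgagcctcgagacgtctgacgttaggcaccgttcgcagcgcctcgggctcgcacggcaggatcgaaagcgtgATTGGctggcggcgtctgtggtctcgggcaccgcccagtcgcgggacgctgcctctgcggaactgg
FDPS, plus strand, chr1:155308616-155308747: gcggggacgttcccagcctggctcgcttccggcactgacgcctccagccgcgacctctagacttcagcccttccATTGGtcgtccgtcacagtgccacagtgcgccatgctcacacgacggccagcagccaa
MVK site, plus strand, chr12:109573579-109573608: tttttATTGGttcgcagttcTCACCCCAGg
FDPS site, plus strand, chr1:155308835-155308864: tatatatttccgcccttagtGTGGGGAGAg
The MVK site places a CCAAT box 210 bases and the sterol-like match 195 bases before the start, and the sterol-like match of FDPS, on the other strand, lies 11 bases before its start.

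Total counts ran from 37189698 to 44883561 in control and from 34682501 to 36780334 in LDL samples, so the LDL libraries were the shallower ones. Chi-square per degree of freedom was 8.47 to 14.1 for pairs of control libraries. It was 6.73 for LDL samples 2 and 3, and 17.5 to 28.9 for the LDL pairs that include sample 1 or 4. No library was treated as a repeat of another. Counts were put on a common scale as CPM, counts relative to a fixed library total, with TMM factors that adjust for differences in library composition. The marker values in the rest of this paragraph are CPM of the library total alone, without those factors. ERBB2, which SKOV3 is known to carry amplified, ran from 2202 to 3108 CPM, the 4 epithelial keratin genes looked at from 365 to 1833 CPM, and CDKN2A, which the line is known to lack, was at 0 counts in every library, which allows up to 3. Of markers of other cell types, PTPRC of leukocytes was at 0 counts throughout and the other leukocyte and endothelial markers stayed at or below 0.598 CPM, while the fibroblast markers DCN, LUM and COL3A1 ran from 1.01 to 27.8 CPM. COL3A1 ran from 22.5 to 25.4 CPM in controls and from 13.9 to 27.8 CPM in LDL samples. The part of depth and of these markers in the results below was not tested.

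All 9 enzymes had a mean above control in LDL samples, with log2 fold changes from 0.06 (PMVK) to 0.40 (IDI1) and a median of 0.24. Over all features tested, 52.3% lay above 0 and the median was 0.0060. None of the 9 passed an adjusted p of 0.05 over all features in the quasi-likelihood test of edgeR, where 4 features, or 0.0259%, passed upward. At an unadjusted p under 0.05 in edgeR, 8 of 9 members were higher, all but PMVK, against 2.88% of features. That count was 6 to 8 with 1 sample left out. In 6 of 9 members every LDL sample lay above every control sample, against 1.74% of features; MVK was among them with its groups all but touching, and the count was 5 under each other scaling or count filter run. DESeq2 called 2 members higher, IDI1 and FDFT1, against 0.11% of features. Ranked by p among the 15432 features, FDFT1 stood at 17, IDI1 at 27, SQLE at 45, ACAT2 at 51, MVD at 56 and FDPS at 91, while MVK stood at 467, HMGCS1 at 543 and PMVK at 7582. As bulk libraries give RNA per sample, a shift in the make-up of the cells and a shift in RNA per cell cannot be told apart. The members were chosen with earlier results of these data known, so no p was adjusted over the 9 alone.

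**Figure D1:**
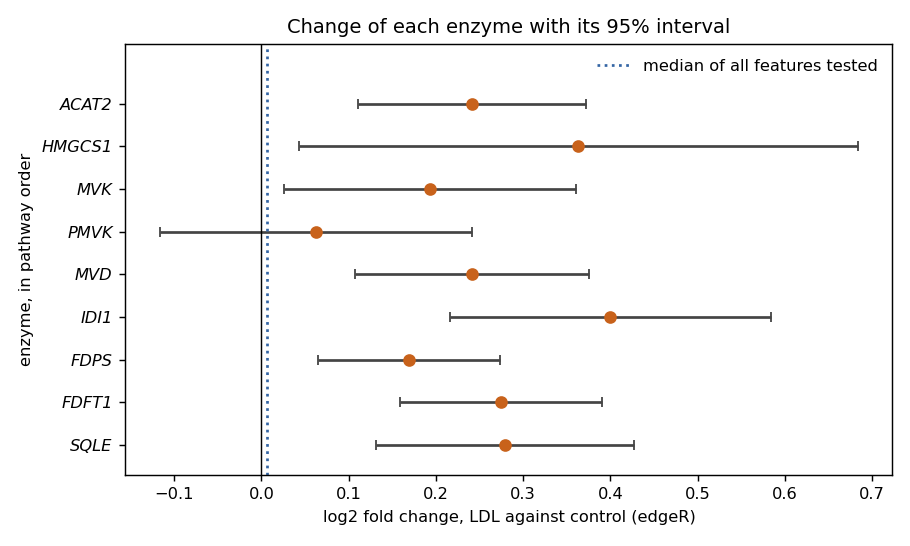
Log2 fold change of LDL against control samples for each of the 9 enzymes in pathway order (edgeR, 4 against 4 samples; bars are 95% intervals), with the median of all features tested as a dotted line. The 95% interval of PMVK, from -0.12 to 0.24, is the only 1 of the 9 that takes in 0, and that of HMGCS1, from 0.04 to 0.68, is the widest.

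The arm opens with ACAT2, the cytosolic thiolase that joins a pair of acetyl-CoA molecules. ACAT2 (ENSG00000120437) lies on the plus strand of chromosome 6 from 159760328 to 159779055 on GRCh38. Its levels were 46.7, 48.8, 45.2 and 50.6 CPM in control samples 1 to 4 and 52.7, 56.2, 58.1 and 59.4 CPM in LDL samples 1 to 4. All LDL samples lay above the highest control sample. The means were 47.8 ± 2.39 and 56.6 ± 2.90 CPM (SD, n = 4 each), a ratio of 1.18 (log2 fold change 0.24, SE 0.062, edgeR adjusted p = 0.353; exact two-sided permutation p = 0.0286, the smallest that 4 against 4 samples allow). On the opposite strand, TCP1 shares 397 exon bases with it and stood at 372 and 374 CPM in control and LDL samples. A gene model of SOD2 shares 1141 exon bases, and another model of that name lies 15141 bases away. The deposited SOD2 values, matched by name only, were 339 and 338 CPM, and which model they count is not known. The strand setting of the counting is not given in the sources used here, so reads of these overlaps cannot be assigned with certainty. The mitochondrial thiolase ACAT1, its paralogue, had a log2 fold change of 0.09 (edgeR adjusted p = 0.944).

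HMGCS1, the cytosolic synthase that makes HMG-CoA (ENSG00000112972, chromosome 5, 43289395 to 43313512, minus strand), had the most scattered LDL values of the 9 (coefficient of variation 18.8%). Control samples 1 to 4 held 128, 134, 118 and 125 CPM, and LDL samples 1 to 4 held 182, 171, 180 and 117 CPM. LDL samples 1, 2 and 3 lay above all controls, and LDL sample 4 lay below the lowest control. The means were 126.5 ± 6.45 and 162.7 ± 30.6 CPM (SD, n = 4 each), a ratio of 1.29 (log2 fold change 0.36, SE 0.137, edgeR adjusted p = 0.876; exact two-sided permutation p = 0.143). With LDL sample 4 left out it reached a log2 fold change of 0.49 and passed over all features (edgeR adjusted p = 0.000145). The fits that left out any other single sample gave 0.30 to 0.39 with no pass, and HMGCS1 kept an unadjusted p under 0.05 in 1 of those 7, the fit without control sample 2.

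**Figure D2:**
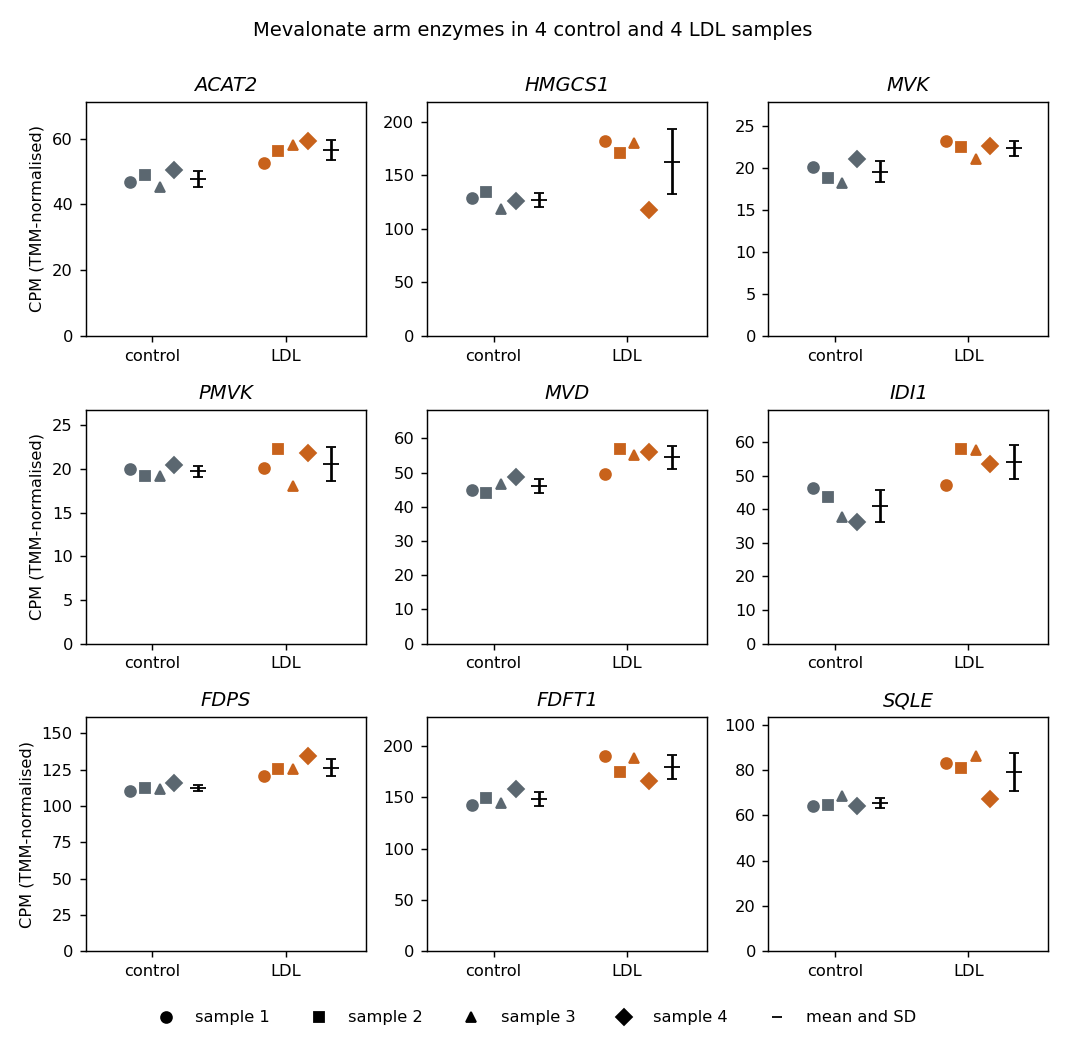
TMM-normalised CPM of the 9 enzymes in each of 4 control (grey) and 4 LDL (orange) samples, with marker shapes for the sample number and the group mean and SD beside them; each axis starts at 0 and has its own scale. The LDL points lie above all control points for ACAT2, MVK (nearly touching), MVD, IDI1, FDPS and FDFT1, and LDL sample 4 lies among or below the controls for HMGCS1 (117 CPM) and SQLE (67.0 CPM).

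The kinases MVK and PMVK and the decarboxylase MVD, which turn mevalonate into the isoprene unit, had log2 fold changes of 0.19, 0.06 and 0.24. MVK, mevalonate kinase (ENSG00000110921, chromosome 12, 109573255 to 109598117, plus strand), held 20.1, 18.8, 18.3 and 21.1 CPM across control samples 1 to 4 and 23.3, 22.6, 21.1 and 22.6 CPM across LDL samples 1 to 4. The lowest LDL value (21.11 CPM) and the highest control value (21.10 CPM) were all but equal, and their order turned with DESeq2 size factors, with upper-quartile factors, with other count filters and in FPKM. For MVK that gave a log2 fold change of 0.19 (SE 0.079, edgeR adjusted p = 0.849; 19.6 ± 1.27 against 22.4 ± 0.907 CPM, SD, n = 4 each). PMVK, phosphomevalonate kinase (ENSG00000163344, chromosome 1, 154924734 to 154936991, minus strand), held 19.97, 19.2, 19.2 and 20.4 CPM across control samples 1 to 4 and 20.1, 22.3, 18.1 and 21.8 CPM across LDL samples 1 to 4. Its groups overlapped, with LDL sample 3 the lowest and LDL sample 2 the highest of the 8. The log2 fold change of PMVK was 0.06 (SE 0.085, 95% interval -0.12 to 0.24, edgeR adjusted p = 0.952), whose upper bound equals, after rounding, the median of the 9 members.

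MVD, the decarboxylase that yields isopentenyl diphosphate (ENSG00000167508, chromosome 16, 88651935 to 88663161, minus strand), held 44.8, 43.9, 46.7 and 48.7 CPM across control samples 1 to 4 and 49.6, 57.0, 55.1 and 56.1 CPM across LDL samples 1 to 4. The groups did not overlap, and LDL sample 1 came close to control sample 4. The means were 46.0 ± 2.13 and 54.4 ± 3.34 CPM (SD, n = 4 each), a ratio of 1.18 (log2 fold change 0.24, SE 0.064, edgeR adjusted p = 0.405; exact two-sided permutation p = 0.0286).

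The isomerase gene IDI1, whose enzyme turns isopentenyl into dimethylallyl diphosphate, had the largest fold change of the 9 members. IDI1 (ENSG00000067064, chromosome 10, 1039152 to 1049170, minus strand) held 46.4, 43.7, 37.7 and 36.2 CPM across control samples 1 to 4 and 47.2, 58.1, 57.5 and 53.6 CPM across LDL samples 1 to 4. The controls were more spread than for any other member (coefficient of variation 11.8%, against 2.05% to 6.50% in the rest), and LDL sample 1 stood just above control sample 1. The means were 41.0 ± 4.83 and 54.1 ± 5.00 CPM (SD, n = 4 each), a ratio of 1.32 (log2 fold change 0.40, SE 0.086, 95% interval 0.22 to 0.58, edgeR adjusted p = 0.173; exact two-sided permutation p = 0.0286). DESeq2 gave an adjusted p of 0.00918 for IDI1, and edgeR without LDL sample 1 an adjusted p of 0.0175. It also passed with sample weights and without LDL samples 1 and 4, the latter a fit added after seeing the data. In the 16 other alternatives its adjusted p ran from 0.109 to 0.793, 0.484 with the replicate block among them. Its paralogue IDI2, next to it on the same strand, had a count of 0 in all 8 libraries.

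FDPS, which builds farnesyl diphosphate (ENSG00000160752, chromosome 1, 155308748 to 155320666, plus strand), held 110, 112, 112 and 116 CPM across control samples 1 to 4 and 120, 126, 125 and 134 CPM across LDL samples 1 to 4. It had the tightest controls (coefficient of variation 2.05%), and all LDL samples lay above them. The means were 112.4 ± 2.30 and 126.4 ± 5.80 CPM (SD, n = 4 each), a ratio of 1.12 (log2 fold change 0.17, SE 0.050, edgeR adjusted p = 0.57; exact two-sided permutation p = 0.0286). The difference was among the smallest of the 9 in size, next to those of PMVK and MVK, and exceeded the spread within groups.

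FDFT1, squalene synthase, makes the first product committed to sterols, and it had the smallest p of the 9. FDFT1 (ENSG00000079459, chromosome 8, 11795573 to 11839309, plus strand) held 142, 149, 144 and 158 CPM across control samples 1 to 4 and 190, 175, 188 and 165 CPM across LDL samples 1 to 4. The groups did not overlap, and LDL sample 4 was the nearest to the controls. The means were 148.3 ± 7.06 and 179.4 ± 11.6 CPM (SD, n = 4 each), a ratio of 1.21 (log2 fold change 0.27, SE 0.055, edgeR adjusted p = 0.106; exact two-sided permutation p = 0.0286). DESeq2 gave FDFT1 an adjusted p of 0.00376, and in the 15 of 20 alternatives where FDFT1 did not pass the adjusted p ran from 0.0797 to 0.735.

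SQLE, the oxygen-dependent epoxidase that closes the arm and a known control point of the pathway (ENSG00000104549, chromosome 8, 124998497 to 125022283, plus strand), held 64.2, 64.6, 68.5 and 63.9 CPM across control samples 1 to 4 and 83.1, 80.8, 86.1 and 67.0 CPM across LDL samples 1 to 4. LDL samples 1, 2 and 3 lay above all controls, and LDL sample 4 lay between control samples 2 and 3. The means were 65.3 ± 2.11 and 79.3 ± 8.43 CPM (SD, n = 4 each), a ratio of 1.21 (log2 fold change 0.28, SE 0.070, edgeR adjusted p = 0.333; exact two-sided permutation p = 0.0571). Without LDL sample 4 its log2 fold change was 0.35 (edgeR adjusted p = 0.00716), and in the 17 of 20 alternatives where SQLE did not pass the adjusted p ran from 0.0756 to 0.847.

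Which LDL sample stood highest or lowest differed from member to member. Whether this is particular to the arm was not tested. Over all features edgeR called 149 without LDL sample 1 and 26 without LDL sample 4, against 10 with all 8 samples. Relative to each gene's own mean over the 8 samples, the 9 members averaged -0.16 to -0.09 on the log2 scale in the controls and 0.11, 0.17, 0.15 and 0.07 in LDL samples 1 to 4. Of the 9 members, 8, 9, 8 and 7 exceeded all controls in LDL samples 1 to 4. LDL sample 1 held the highest value of HMGCS1, MVK and FDFT1 among the 8 samples and the lowest LDL value of ACAT2, MVD, IDI1 and FDPS. LDL sample 4 went the other way, with the highest ACAT2 and FDPS and the lowest LDL value of HMGCS1, FDFT1 and SQLE. Without LDL sample 1, edgeR called 4 members (ACAT2, MVD, IDI1 and FDFT1) against 0.301% of features upward, and without LDL sample 4 it called 3 (HMGCS1, FDFT1 and SQLE) against 0.0768%. Without both, in a fit added after seeing the data, 5 passed (HMGCS1, MVD, IDI1, FDFT1 and SQLE) against 0.677%. With sample weights in limma voom 5 passed (ACAT2, MVD, IDI1, FDFT1 and SQLE) against 0.123%. FDFT1 was called in each of these 4 fits, and MVK, PMVK and FDPS in none of them. ACAT2, MVD and IDI1 had their lowest LDL value in sample 1, and HMGCS1, FDFT1 and SQLE in sample 4. Leaving out the lowest LDL value raises the LDL mean of a member by construction, so such calls are no separate support. The 4 fits also rest on overlapping samples, and in 15 of 20 alternatives no member passed.

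**Figure D3:**
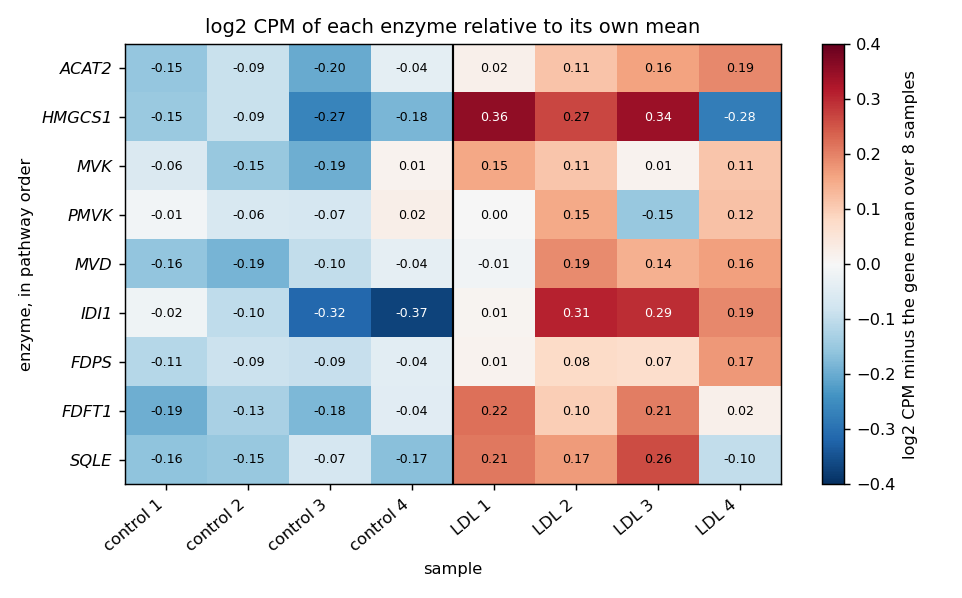
Log2 CPM of each enzyme (rows, pathway order) in each sample (columns, controls left of the line) minus the gene's mean over the 8 samples. LDL sample 4 is at -0.28 for HMGCS1 and 0.19 for ACAT2, while LDL sample 1 is at 0.36 for HMGCS1 and 0.02 for ACAT2.

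Whether neighbouring members moved by different amounts was asked from the log2 ratio of their CPM within each sample, which does not depend on library scaling. For the 8 neighbouring pairs an exact permutation test, two-sided, was run over 4 against 4 samples. The ratio of MVD to PMVK was 1.22 ± 0.053 in control and 1.41 ± 0.136 in LDL samples on the log2 scale (SD, n = 4 each), with no overlap between groups (exact permutation p = 0.0286, adjusted p = 0.229 over the 8 pairs). The ratio of PMVK to MVK went from 0.01 ± 0.051 to -0.12 ± 0.107 (SD, n = 4 each; exact permutation p = 0.0571, adjusted p = 0.229). Without LDL sample 3 the difference in the MVD to PMVK ratio fell from 0.18 to 0.12. With these sample numbers 1 fully separated pair among 8 can reach an adjusted p of no less than 0.229, so the adjusted values do not tell whether single pairs of neighbouring members differ. The ratio of SQLE to FDFT1 was -1.18 in both groups, a difference of -0.00073 against SDs of 0.099 and 0.087.

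Levels of different genes were compared per gene length, in the FPKM that the authors deposited (fragments per length of transcript and library size). In control samples the order from the top was FDPS (86.3 ± 1.70 FPKM), FDFT1 (72.3 ± 3.88), ACAT2 (29.9 ± 1.58), HMGCS1 (29.2 ± 2.03), MVD (26.0 ± 1.154), SQLE (21.2 ± 0.474), PMVK (18.7 ± 0.669), IDI1 (14.6 ± 1.262) and MVK (8.87 ± 0.725; SD, n = 4 each). ACAT2 and HMGCS1, and HMGCS1 and MVD, overlapped in their sample ranges, and the other neighbours in that order did not. In LDL samples the order was the same but for HMGCS1 (38.1 ± 6.89 FPKM), which stood before ACAT2 (35.6 ± 1.502; SD, n = 4 each) with overlapping ranges. FDPS (96.7 ± 4.29 FPKM) and FDFT1 (86.5 ± 7.67) overlapped there too, as did PMVK (19.6 ± 1.82) and IDI1 (19.4 ± 1.94; SD, n = 4 each). The farnesyl diphosphate and squalene synthases were thus the most abundant messages per length in both groups, and mevalonate kinase the least abundant.

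**Figure D4:**
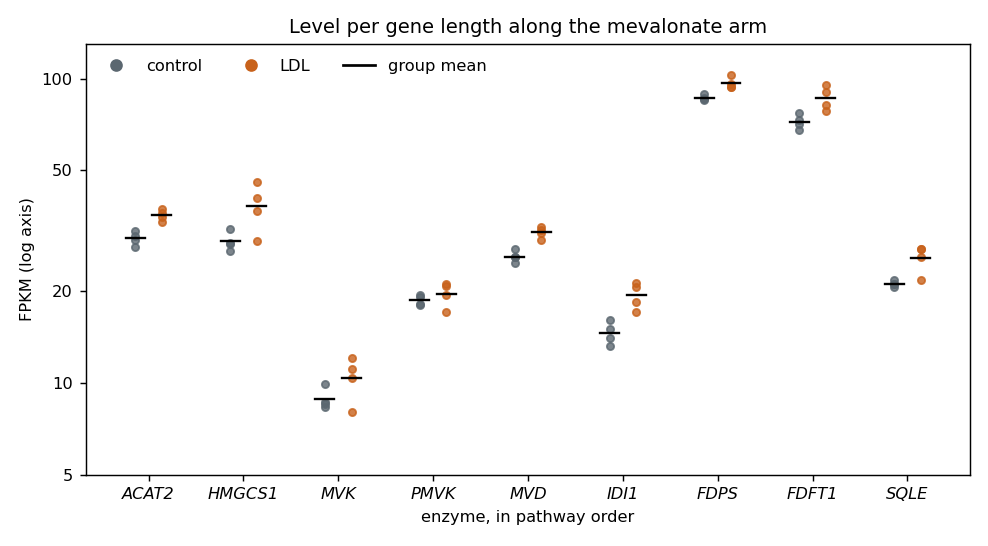
Deposited FPKM of the 9 enzymes in pathway order on a log axis, 4 control (grey) and 4 LDL (orange) samples each, with black bars for group means. FDPS and FDFT1 stand at 72.3 to 96.7 FPKM on average and MVK at 8.87 and 10.4 FPKM.

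Counts and FPKM did not give the same picture for every member, because the length that links the deposited values differed between libraries. That implied length (count over FPKM and total count) varied by a factor of 1.03 between the highest and lowest library for ACAT2, PMVK, FDPS and SQLE and by 1.06 for MVD and FDFT1. It varied by 1.35 for MVK, 1.23 for HMGCS1 and 1.16 for IDI1, where the median of 11820 features with at least 100 counts in each library was 1.05. For MVK the groups overlapped in FPKM, with LDL sample 3 at 8.07 FPKM below all controls. In FPKM 5 of 9 members had LDL samples all above the controls (ACAT2, MVD, IDI1, FDPS and FDFT1), against 2.2% of features.

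The genes around the arm were described from lists beside the 9 members. Of 12 genes of the sterol arm after squalene epoxide, 9 lay above 0, against 52.3% of features, and the median log2 fold change was 0.19. Below 0 lay EBP (-0.26, SE 0.155, edgeR adjusted p = 0.884), SC5D (-0.07, SE 0.068) and FAXDC2 (-0.17, SE 0.502, with 101 counts in all). In edgeR 2 of the 12 passed upward over all features, against 0.0259% of features. They were MSMO1, the sterol methyl oxidase (0.46, adjusted p = 0.0114), and CYP51A1, the lanosterol demethylase (0.35, adjusted p = 0.0347). The 15 genes of the isoprenoid branches that leave from farnesyl diphosphate had 8 above and 7 below 0, a median of 0.02 and no call; the smallest p was that of RABGGTB, a subunit of the enzyme that prenylates Rab proteins (0.21, SE 0.098, edgeR adjusted p = 0.879). Of 5 genes of acetyl-CoA supply none passed, 3 lay above 0 and 2 below, and the median was 0.06. ACSS2, the cytosolic acetyl-CoA synthetase, was at 0.15 (SE 0.061, edgeR adjusted p = 0.849). ACLY, the lowest of the 5, was at -0.11 (SE 0.051, edgeR unadjusted p = 0.0515, adjusted p = 0.879). At an unadjusted p under 0.05 in edgeR, 7 of 12 genes of the sterol arm were higher, against 8 of 9 members and 2.88% of features. For the isoprenoid branches 1 of 15 was higher and for acetyl-CoA supply 1 of 5. No gene of these lists was lower, where 419 of 15432 features were. Differences between lists were not tested.

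**Figure D5:**
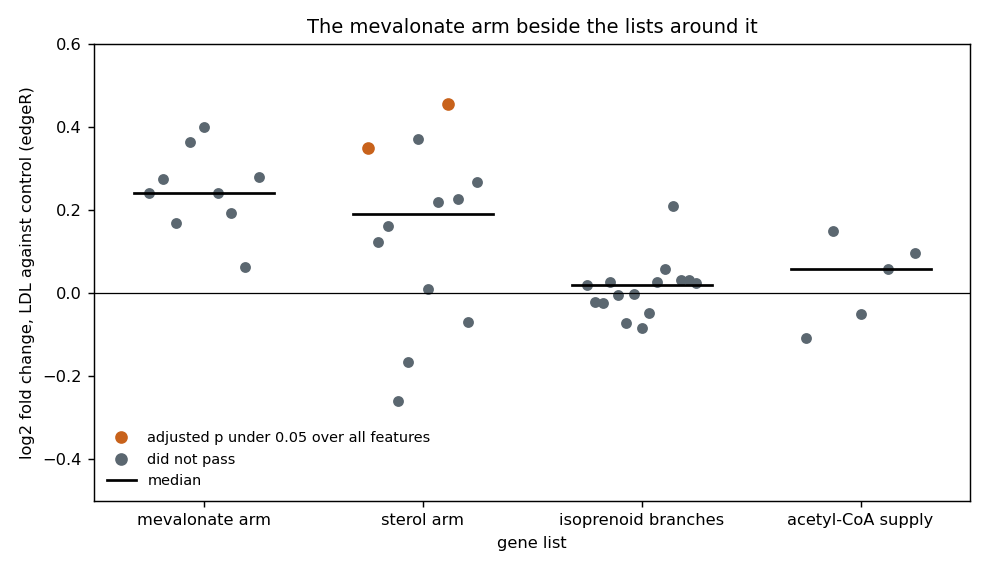
Log2 fold change (edgeR, LDL against control, 4 samples each) of every tested gene of the mevalonate arm and of 3 lists around it; bars are medians and orange points passed an adjusted p of 0.05 over all features. The medians are 0.24, 0.19, 0.02 and 0.06 from left to right, and the 2 orange points are MSMO1 and CYP51A1.

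The genes nearest in pattern to the arm were sought among 9807 named genes with a mean of at least 10 CPM, by the root mean square difference between their centred log2 CPM and the mean profile of the 9 members over the 8 samples. They were IFITM2 (0.051), an interferon-induced membrane protein gene, TRIM38 (0.052), a ubiquitin ligase gene, MMAB (0.053), the cobalamin adenosyltransferase gene, ACSS2 (0.057) and LPIN3 (0.057), a lipin phosphatase gene, where the median gene lay at 0.156. The members themselves, each of which enters that mean, lay from 0.063 (FDFT1) and 0.064 (ACAT2) to 0.175 (HMGCS1). IFITM2, TRIM38 and LPIN3 had log2 fold changes of 0.16, 0.17 and 0.21 (edgeR adjusted p = 0.625, 0.849 and 0.830). The mean profile ran only from -0.16 to 0.17, so a gene with little change also lies near it. Whether nearness reflects more than a small change was not tested. MMAB is also the neighbour of MVK in head-to-head orientation, sharing 306 exon bases on the opposite strand, and averaged 28.0 ± 1.12 CPM in controls against 31.9 ± 1.12 CPM with LDL (SD, n = 4 each; log2 fold change 0.19, SE 0.066, edgeR adjusted p = 0.789). The other measured neighbours lay closer to 0: RUSC1 beside FDPS at 0.06, PBXIP1 beside PMVK at -0.03, TCP1 beside ACAT2 at 0.01 and CTSB beside FDFT1 at -0.00020 on the log2 scale, with edgeR adjusted p from 0.936 to 1.00.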

How the data were processed

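Stranded mRNA libraries of 8 samples were sequenced, per the labels' protocols. GRCh38, featureCounts, HISAT2 and DESeq2 1.26.0 are listed, without roles, per the submitters' processing notes; no source used here gives the annotation or strand setting. The deposited counts are whole numbers but behave like estimated counts (55.2% of values from 1 to 20 are even, and 2557 features carry assembly names), so they were handled as such, without rounding. The deposited FPKM were scaled by the authors to length and library size.

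The main test was edgeR's quasi-likelihood F test (version 4.0.16, R 4.3.3; TMM, filterByExpr, robust, group only), adjusted by Benjamini-Hochberg over 15432 features and called under 0.05. Alternatives used DESeq2 1.42.0, limma 3.58.1 (voom, with and without sample quality weights; log2(FPKM + 1) and log2(FPKM + 0.1)), other scaling and filters, and left-out samples. Single values had exact permutation tests in SciPy 1.17.1. Positions came from GENCODE 29 on GRCh38.

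The members, lists and naming rule were chosen with earlier results of these data known. The rule names the 9 members, called genes of each list (up to 3) or its smallest p, the 5 genes nearest in pattern, and listed neighbours. SOD2, ACAT1 and ACLY were named besides, as an overlap, a paralogue and the lowest of the acetyl-CoA list. EBP, SC5D and FAXDC2 were named as the sterol arm genes with a negative log2 fold change. A list of regulators is not reported here. RUSC1-AS1 and IDI2-AS1 were not used here.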

Additional observations from a re-analysis of the deposited data

Results flagged for a closer look

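Among 36 sets of 4 values (9 members, 2 groups, CPM and FPKM), 2 held a sample far from the other 3 by Dixon's test at the 95% level, where chance gives about 1 in 20. HMGCS1 stood at 117.4 CPM in LDL sample 4, against 171 to 182 CPM in the other LDL samples, so its gap took 0.831 of the range. SQLE stood at 68.5 CPM in control sample 3, against 63.9 to 64.6 CPM in the other controls, a gap of 0.841 of the range. In FPKM neither set was past the critical value.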

How the results depend on the processing

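All 9 members kept a log2 fold change above 0 in 19 other ways of scaling, filtering, testing or leaving out a sample, and in 1 added after seeing the data (LDL samples 1 and 4 both left out). Over the 19 PMVK ranged from 0.02 to 0.12, HMGCS1 from 0.30 to 0.49 and IDI1 from 0.34 to 0.46. Members past an adjusted p of 0.05 numbered 0 in edgeR and 2 with DESeq2, 5 with sample weights, 5 without LDL samples 1 and 4, and 0 to 4 with 1 sample left out. Features called in all were 10 in edgeR, 48 with DESeq2, 50 with sample weights, 2 in each of the FPKM fits, 248 without LDL samples 1 and 4, and 2 to 149 with 1 sample left out (3, 6, 2 and 5 without control samples 1 to 4; 149, 3, 6 and 26 without LDL samples 1 to 4). The cause of these differences was not tested, though left-out fits also hold fewer samples. Same-numbered samples did not deviate together (correlations -0.10, 0.06, 0.03 and -0.0043), and with the replicate block 2 features and no member were called, with log2 fold changes of 0.06 to 0.40; not every sample correlated best with its own number. Members with non-overlapping groups numbered 5 to 8, but over all features that count, 268 of 15432 for LDL higher, rose to 415 to 529 with 1 sample left out, 1124 of 15625 without LDL sample 1 and 1885 of 15944 without LDL samples 1 and 4; other tests give no such count. The ratio of SQLE to FDFT1 changed sign in FPKM (0.021) and ran from -0.042 to 0.039 with 1 sample left out. With 1 mismatch allowed, the sterol core matched for 2 members in place of 0. With 3 against 4 samples an exact test cannot go below 0.0571, so ratios were given there without one.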
